A study of Homo sapiens with 7 samples.

Results

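MicroRNAs whose number lies between 500 and 1999 were followed through 7 captures of microRNA from A375, a human melanoma cell line. Members were found by name: 98 mature names of the deposited table fell in that number range, 7 of them (miR-619-5p, miR-1246, miR-1254, miR-1273a, miR-1273g-3p, miR-1285-3p and miR-1290) were left out by the rule, and 91 of the 480 names in all remained, each with 1 row. In miR-CATCHv2.0 an mRNA is pulled down with tiled probes after formaldehyde crosslinking, and the microRNAs held on it are sequenced. Here the probes were aimed at the 3' UTR of X1, one of the mRNA isoforms of the kinase BRAF, in cells fixed for 10 min in 1% formaldehyde 24 h after they were seeded. The ODD probe set and the EVEN probe set, both directed at X1, were used in 3 captures each, and scrambled probes in 1 capture; together ODD and EVEN are called X1 probes. All 7 libraries came from the same untreated line, and the scrambled group has no replicate, so what it lacks or holds rests on 1 capture. The design text calls the ODD and EVEN captures independent, without saying whether they came from separate cultures, so p-values measure the spread between these captures only.

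A microRNA is cut from a hairpin transcript and loaded into an Argonaute protein, and it finds target mRNAs mainly by pairing through its seed, bases 2 to 8. Numbers are given in order of registration, so a number range is no family: it mixes conserved microRNAs inside introns, primate-specific ones, mirtrons (short introns that are spliced straight into a hairpin) and entries that overlap tRNA, snoRNA or Alu repeats. Either arm of the hairpin, 5p or 3p, can give the mature strand. A375 cells come from a skin melanoma and carry an activated BRAF gene.

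The sequences of the members that held most reads or that stood at either end of a comparison are shown first, since the seed is the part that would pair with a target. The mature sequences come from RefSeq (GRCh38.p14), which matched 76 of the 91 names. Each is written 5′ to 3′ with the seed in capitals.
miR-1260b: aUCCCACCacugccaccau
miR-1260a: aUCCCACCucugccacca
miR-584-5p: uUAUGGUUugccugggacugag
miR-1307-3p: aCUCGGCGuggcgucggucgug
miR-1307-5p: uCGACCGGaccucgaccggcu
miR-574-5p: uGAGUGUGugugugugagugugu
miR-574-3p: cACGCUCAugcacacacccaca
miR-744-5p: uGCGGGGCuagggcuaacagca
miR-877-5p: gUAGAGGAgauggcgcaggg
miR-941: cACCCGGCugugugcacaugugc
miR-671-3p: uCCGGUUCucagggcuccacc
miR-1180-3p: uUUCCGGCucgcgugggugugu
miR-767-5p: uGCACCAUgguugucugagcaug
miR-769-5p: uGAGACCUcuggguucugagcu
The miR-1260 pair has the same seed, and counted from the 5′ end its members share the first 8 bases. They differ by the substitution U9A (miR-1260a first) and by the added last base of miR-1260b, which makes it 19 bases long against 18. Both resemble the 3′ end of a leucine tRNA with its CCA tail. The 76 matched members carried 73 different seeds. Seeds held by more than 1 member were those of the miR-1260 pair, of miR-1268a and miR-1268b, and of miR-663a and miR-1908-5p. A single member, miR-1291, had the seed of a name outside the range, miR-6775-3p, at 1 read each. The mature lengths ran from 17 to 24 bases. The median GC content was 58.3% for the matched members and 52.2% for the 330 other names with a sequence, and weighted by reads it was 59.7% against 49.9%.

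In RefSeq's positions on GRCh38.p14 (the build of the deposited table is not given in the sources used here), 62 of the 76 lay within the span of an annotated gene, on either strand and without regard to exons. The mature miR-584-5p lies at chr5:149062373-149062394 on the minus strand, within the span of SH3TC2. miR-1307-3p lies at chr10:103394301-103394322 on the minus strand, within ATP5MK. miR-1260b lies at chr11:96341447-96341465 within MAML2, and miR-1260a at chr14:77266231-77266248 within NGB, both on the plus strand. miR-877-5p lies at chr6:30584332-30584351 on the plus strand, within ABCF1, and miR-767-5p at chrX:152393481-152393503 on the minus strand, within GABRA3. The sequence of miR-941 occurs at 5 loci on chromosome 20, the first of them within DNAJC5, and reads from these copies cannot be told apart.

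Levels are given in RPM, reads scaled by the authors to 1000000 per library. All values came out as whole numbers of reads, so the reads behind them are given too. With 1 row per name the libraries held 3046 to 25679 reads, with 3479 in the scrambled library. The 2 libraries labelled replicate 3 (3046 and 3524 reads) and the scrambled one were the shallowest. A read was worth 28.2 RPM in ODD replicate 2 and 215 RPM in the scrambled library. RPM is a share, so a change in the number of cells, in the RNA of a cell or in the total captured cannot be told apart. Of 5 pigment-cell microRNAs fixed as markers, 2 were among the 480 names (miR-204-5p and the member miR-509-3p). The others, miR-211-5p, miR-508-3p and miR-514a-3p, had no entry. The 2 had 162 reads together, only 6 of them from miR-509-3p. They made up 0.144% of the scrambled reads and 0.191% to 0.397% of those captured with X1 probes. Blood, epithelial and muscle markers each summed to at most 0.0985% in any X1-probe library, and the neuronal list to at most 0.131%, against 0.172% in the scrambled library.

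The 91 members together held 1818 reads over the 7 libraries. Their summed share of the microRNA reads was 3.33%, 2.84% and 2.33% in ODD replicates 1 to 3. In EVEN replicates 1 to 3 it was 3.09%, 3.13% and 2.78%, and with scrambled probes it was 3.56%. The scrambled library was thus the highest, and the ODD and EVEN libraries overlapped. The ODD libraries averaged 2.83% ± 0.497 and the EVEN libraries 3.0% ± 0.192 (SD, n = 3 each). The exact Clopper-Pearson 95% interval of the scrambled share ran from 2.97% to 4.23% and held the shares of ODD replicate 1 and of EVEN replicates 1 and 2. The interval of ODD replicate 1 (2.94% to 3.75%) lay just above that of ODD replicate 3 (1.82% to 2.93%), 2 captures made with the same probes. Without molecular identifiers several reads can stem from 1 molecule, so all such intervals cover counting error only.

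**Figure D1:**
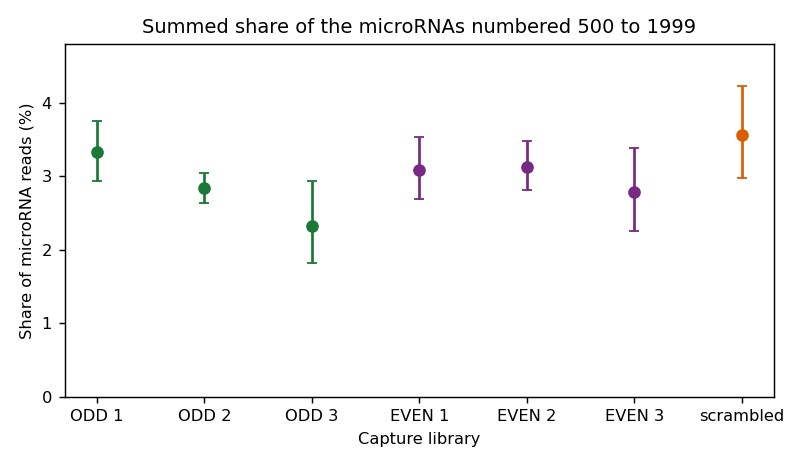
Summed share of the 91 members in percent of microRNA reads (y axis) for each capture library (x axis), with bars for the exact 95% interval on reads. The scrambled library has the highest point, 3.56%, and ODD replicate 3 the lowest, 2.33%.

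By comparison, names numbered 1 to 499 held 79.8% ± 1.13 of the reads of the X1-probe libraries (SD, n = 6), names from 3000 to 4999 held 2.71% ± 0.395, and names of 5000 and above 1.68% ± 0.274. The members held 2.92% ± 0.350. Few of them were steady: 11 of the 91 (12.1%) had reads in all 7 libraries, against 96 of the 389 other names (24.7%). Another 44 members (48.4%) had reads in a single library, against 126 of the other names (32.4%). Higher-numbered names were as sparse as the members. Of those from 3000 to 4999, 13.6% had reads in all 7 libraries and 47.7% in a single one. For names of 5000 and above these were 8.7% and 56.5%. The median member had 2 reads in all, 33 members had exactly 1, and 7 had 50 or more.

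A few members carried the class. The pair miR-1260b and miR-1260a came first, with 321 and 299 reads. In ODD replicates 1 to 3 miR-1260b stood at 3511, 4055 and 3211 RPM. It stood at 3336, 4554 and 2937 RPM with EVEN probes, in the same order, and at 3228 RPM with scrambled probes. miR-1260a had 3511, 3689 and 3211 RPM with ODD probes, 3121, 4416 and 2098 RPM with EVEN probes and 3013 RPM with scrambled probes. The scrambled values lay inside the range of the X1-probe libraries for both. In each library the pair had nearly the same number of reads: 38 and 38 for ODD replicate 1, 66 and 64 for EVEN replicate 2, 15 and 14 for scrambled probes. miR-1260b held 50% to 58.3% of the pair's reads. With 1 base and a tail between them, how the counting divided or repeated their reads is uncertain, and the pair is best read as 1 signal. The 2 entries together were 0.681% to 1.23% of the reads of the X1-probe libraries and 0.834% of the scrambled library. Without them the summed share of the members was 1.48% to 2.36% with X1 probes and 2.73% with scrambled probes.

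miR-584-5p, whose hairpin lies within SH3TC2, followed with 236 reads. It had 2957, 2563 and 2223 RPM with ODD probes, 3013, 2622 and 3776 RPM with EVEN probes, and 4304 RPM (20 reads, exact 95% interval 2631 to 6639) with scrambled probes. The scrambled value lay above all 6 X1-probe libraries, although 2 EVEN libraries and 1 ODD library were inside its interval. miR-1307-3p came next with 151 reads. Its levels were 2125, 1971 and 494 RPM with ODD probes, 1507, 1863 and 839 RPM with EVEN probes and 2367 RPM (11 reads, 1182 to 4231) with scrambled probes. Both replicate 3 libraries were low, resting on 2 and 4 reads.

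miR-1273f, whose entry belongs to a group that overlaps Alu repeats, had 92 reads. Its levels were 1294, 873 and 494 RPM with ODD probes and 753, 966 and 1888 RPM with EVEN probes. In the scrambled library it reached 3228 RPM, from 15 reads, and ranked level with miR-1260b. The 6 member entries named miR-1273 together gave 155 reads. They made up 0.131% to 0.341% of the reads of the X1-probe libraries and 0.460% of the scrambled library, 15 of whose 16 reads were miR-1273f.

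miR-574-5p, a GU-repeat strand from the span of FAM114A1, had 15, 24 and 0 reads with ODD probes, 6, 21 and 5 with EVEN probes and 2 with scrambled probes. miR-744-5p, whose hairpin lies within MAP2K4, had 8, 13 and 2 reads with ODD probes, 7, 1 and 1 with EVEN probes and 8 with scrambled probes. miR-877-5p, a mirtron of ABCF1, had 10, 22 and 2 reads with ODD probes, 11, 5 and 0 with EVEN probes and 3 with scrambled probes. ODD replicate 3 thus lacked miR-574-5p and EVEN replicate 3 lacked miR-877-5p, both shallow libraries, whereas miR-744-5p had a single read in EVEN replicate 2, a library of 10610 reads.

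Next in rank were miR-1285-5p with 40 reads, miR-941 with 41, miR-671-3p with 31 and miR-1180-3p with 35. miR-941, a microRNA known from humans and not from other apes, had 11, 13 and 3 reads with ODD probes, 1, 7 and 5 with EVEN probes and 1 with scrambled probes. miR-767-5p, from the X-linked gene GABRA3 that testis and some tumours express, had 38 reads: 9, 19 and 0 with ODD probes, 5, 3 and 1 with EVEN probes and 1 with scrambled probes. Its neighbour miR-105-5p, which is no member, had 5 reads in all and 0 in the scrambled library. In mean RPM over the 7 libraries the strongest member ranked 37th among the 480 names, miR-584-5p 42nd and miR-1307-3p 56th.

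Reads in all 7 libraries were found for the miR-1260 pair, miR-584-5p, miR-1307-3p, miR-1273f, miR-744-5p, miR-671-3p, miR-941, miR-1180-3p, miR-1273d and miR-1307-5p. Of these miR-1273d had 1, 9 and 1 reads with ODD probes, 2, 7 and 2 with EVEN probes and 1 with scrambled probes, and miR-1307-5p had 1, 5 and 1, then 1, 8 and 1, then 1. Another 8 members had reads in 6 libraries: miR-574-5p, miR-877-5p, miR-1285-5p, miR-1275, miR-767-5p, miR-769-5p, miR-1304-3p and miR-1273h-5p. miR-615-3p, whose hairpin lies in an intron of HOXC5, stood lower, with 2, 4 and 0 reads with ODD probes, 0, 3 and 1 with EVEN probes and 0 with scrambled probes. miR-1910-5p had the most reads of the members seen in 1 library, 4 in ODD replicate 1.

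**Figure D2:**
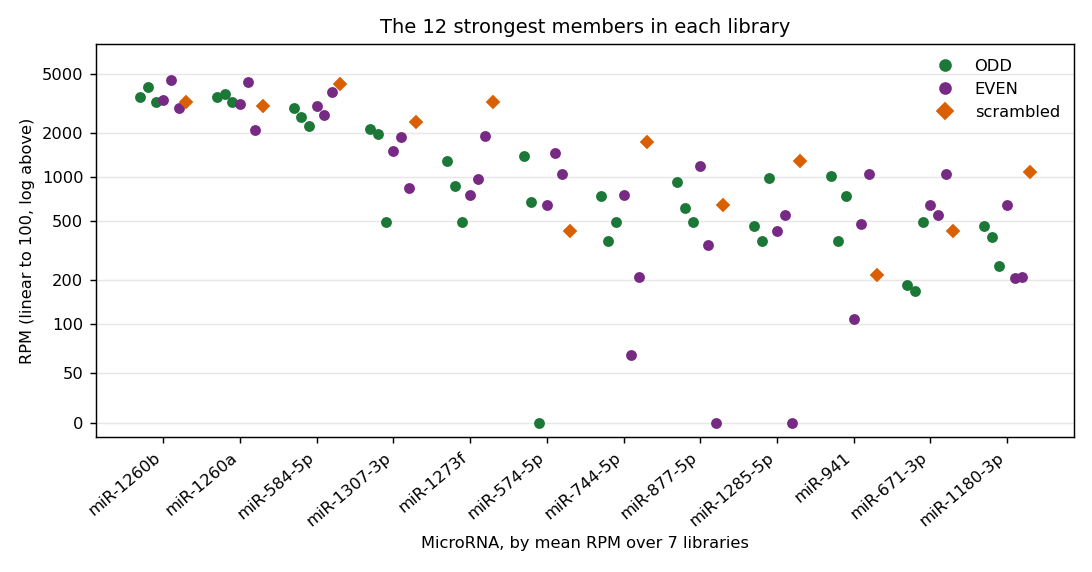
RPM of the 12 members with the highest mean (y axis, linear up to 100 and logarithmic above) by microRNA (x axis), with 1 point per library, ODD in green, EVEN in purple and scrambled as orange diamonds. The miR-1260 pair and miR-584-5p have 2098 RPM or more in all 7 libraries, while miR-574-5p, miR-877-5p and miR-1285-5p reach 0 in 1 library each.

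The leading members were alike among the X1-probe libraries, though not always in the same order. The miR-1260 pair and miR-584-5p were the top 3 members in all 6 X1-probe libraries. In the scrambled library miR-584-5p came first with 20 reads, then miR-1260b and miR-1273f with 15 each and miR-1260a with 14. The top 3 held 41.4%, 50.3% and 49.3% of the member reads in ODD replicates 1 to 3. With EVEN probes they held 43.1%, 50.6% and 42.9%, and with scrambled probes 40.3%. Behind them came miR-1307-3p in ODD replicates 1 and 2 and EVEN replicates 1 and 2, miR-1285-5p in ODD replicate 3 and miR-1273f in EVEN replicate 3.

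**Figure D3:**
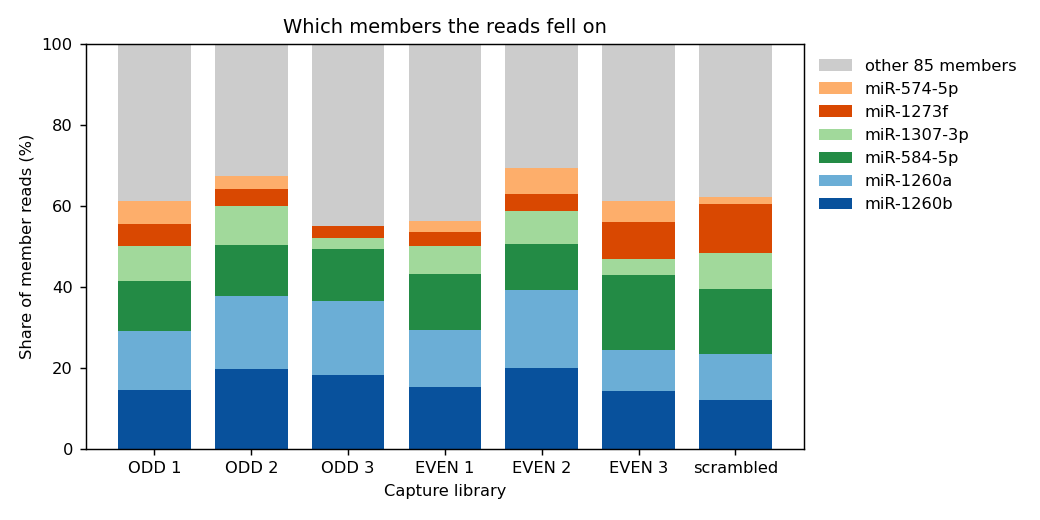
Share of each library's member reads, in percent (y axis), held by 6 named members and by the other 85 (grey) in each capture library (x axis). The 6 named members take from 54.9% of the member reads (ODD replicate 3) to 69.3% (EVEN replicate 2), with the other libraries in between.

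The number of members seen followed depth. ODD replicates 1 to 3 showed 42, 60 and 23 members, EVEN replicates 1 to 3 showed 38, 41 and 25, and the scrambled library 30. The deepest library thus had the most and the shallowest the fewest. At a common depth of 3046 reads, by exact hypergeometric expectation, the numbers would be 28.0, 23.7 and 23.0 for ODD, 28.3, 24.7 and 23.6 for EVEN and 27.9 for scrambled probes. The scrambled library lay within the range of the others there. In all, 42 members had reads with both probe sets, 34 with ODD but not EVEN probes and 13 with EVEN but not ODD probes. None of those 34 had more than 4 reads and none of those 13 more than 3, and ODD held 1060 member reads against 634, so no difference between the probe sets was detectable from them at this depth. The 2 members with reads in the scrambled library alone were miR-503-5p and miR-550a-3p, with 1 read each. Of the 44 seen in a single library, 20 were seen in ODD replicate 2 and 10 in ODD replicate 1.

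**Figure D4:**
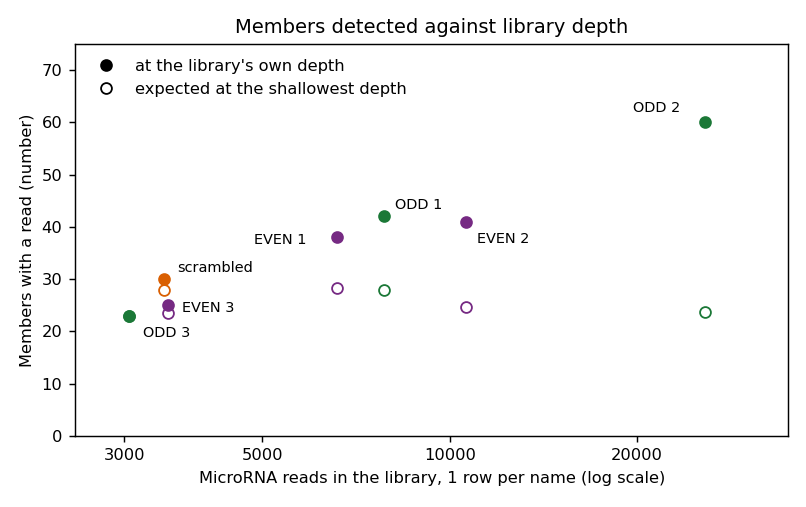
Number of members with at least 1 read (y axis) against the microRNA reads of the library (x axis, log scale); filled points are at the library's own depth and open points are the exact expectation at 3046 reads. Filled points run from 23 to 60 members and open points from 23.0 to 28.3.

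Both arms of 11 hairpins were members, and 7 of these hairpins had 10 reads or more, mostly from 1 arm. The 3p arm of miR-1307 led in all 7 libraries, with 151 reads against 18 for the 5p arm, so that the 5p arm held 10.7% (exact 95% interval 6.44% to 16.3%). For miR-574 the 5p arm led in the 6 libraries with reads and held 83.9% of 87 reads (74.5% to 90.9%). miR-744 and miR-769 were almost all 5p arm, with 40 reads against 1 and 24 reads against 1. miR-671 was mostly 3p arm, at 31 reads against 3. The 5p share of miR-1307 ran from 4.17% to 33.3% over the libraries, the latter from 1 of 3 reads in ODD replicate 3. In the deeper libraries it was 4.17% and 6.67% for ODD replicates 1 and 2, and 6.67% and 22.9% for EVEN replicates 1 and 2. The 22.9% came from 8 reads of the 5p arm and 27 of the 3p arm. A difference in arm share between captures was not tested.

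Grouped by origin, a list of members known in mouse under the same number held 18 names and gave 366 reads, led by miR-1307-3p, miR-574-5p, miR-744-5p and miR-671-3p. The list is not complete: miR-532-5p, miR-877-5p and other members with a mouse namesake are counted in other groups. The 18 made up 0.571% ± 0.179 of the X1-probe reads (SD, n = 6) and 0.776% of the scrambled reads. The entries that overlap snoRNA or tRNA gave 624 reads, 620 of them from the miR-1260 pair; the snoRNA-derived miR-664a-5p, miR-664b-3p and miR-1291 had 2, 1 and 1. Mirtrons gave 54 reads, 53 of them miR-877-5p and 1 miR-1237-3p. The X-linked cluster in CLCN5 gave 31 reads, from miR-532-5p (15), miR-500a-3p (10), miR-660-5p (3) and miR-501-3p (3), at 0.0583% ± 0.0284 of the X1-probe reads (SD, n = 6) and 0.144%, or 5 reads, of the scrambled library.

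Clusters known from placenta, testis, brain or imprinted loci were close to the detection limit. The X-linked cluster from miR-506 to miR-514, which melanoma cells often express, gave 6 reads of 1 member, miR-509-3p. These were 2, 1 and 0 with ODD probes, 2, 0 and 0 with EVEN probes and 1 with scrambled probes. The placental chromosome 19 cluster had 2 reads (miR-1323), the primate miR-548 family 2 (miR-548ay-5p), and the imprinted DLK1-DIO3 cluster 3 (miR-665 with 2 and miR-654-3p with 1), beside 8 reads of 3 lower-numbered microRNAs of that locus. The X-linked cluster of miR-424 and miR-503 had 3 member reads, miR-542-3p with 2 and miR-503-5p with 1, and miR-424-3p of the same cluster had 10.

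The captures ask which microRNAs are held on the X1 mRNA, so each member was set against its scrambled level. No member passed the test. Differences were tested by limma on log2(RPM + 10) over the whole table, for the 242 names that reached 10 RPM in 3 or more libraries, 35 of them members. The other 56 members had at most 5 reads each. By limma with Benjamini-Hochberg adjustment, 0 of the 35 members were higher and 0 lower, the lowest adjusted p being 0.310. Over all 242 names 0.826% were called higher and 0% lower. Without adjustment 2 members were higher and 2 lower at p under 0.05, where 7.02% and 1.65% of all tested names were. The median log2 difference was -0.61 for the 35 members and 0.10 for all 242 names. The scrambled group has a single library, assumed to vary like the others. Of the groups by origin, 9 of the 18 members on the mouse list, 2 of the 4 from the CLCN5 cluster, 2 of the 5 entries over snoRNA or tRNA, miR-877-5p among the mirtrons and miR-509-3p were tested. By limma 0 of them passed, and miR-744-5p was the 1 with an unadjusted p under 0.05. The median log2 difference of the 9 was -0.20.

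The members with the largest positive differences had no scrambled read. miR-769-5p had 1, 12 and 1 reads with ODD probes, 4, 3 and 3 with EVEN probes and 0 with scrambled probes. It was present in every X1-probe library, at 324 ± 189 RPM (SD, n = 6), a level that would give 1.51 reads at the scrambled depth. Its log2 difference in limma was 4.84 with an SE of 1.79 (95% interval 1.2 to 8.48, adjusted p = 0.310). miR-1273h-5p had 3, 6 and 1 reads with ODD probes, 6, 1 and 1 with EVEN probes and 0 with scrambled probes, for a log2 difference of 4.53 (limma, SE 1.98, adjusted p = 0.431). Its mean of 270 RPM would give 1.25 scrambled reads. Since 3 reads, the floor, are 646 RPM in the scrambled library, above both means, no fold is given, and the size of both differences moved with the pseudocount: it ran from 1.13 to 8.11 for miR-769-5p over the other settings and from 0.98 to 7.78 for miR-1273h-5p. These were the members above scrambled in all 6 libraries, 2 of the 35 or 5.71%, where 11.2% of all tested names were. With 0 scrambled reads, this means no more than a read in each X1-probe library. miR-1301-3p, miR-1303 and miR-615-3p, also without a scrambled read, had differences of 3.57, 3.22 and 2.80 but no read in 1 or 2 X1-probe libraries.

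In the other direction 11 members (31.4%) lay below the scrambled library in all 6 X1-probe libraries, where 22.7% of all tested names did. miR-1273f had the most reads of those with an unadjusted p under 0.05: 1045 ± 489 RPM with X1 probes (SD, n = 6) against 3228 RPM (15 reads, exact 95% interval 1808 to 5318). The log2 difference was -1.74 (95% interval -3.07 to -0.42; SE 0.65, adjusted p = 0.310 by limma), and the highest X1-probe library, EVEN replicate 3 with 1888 RPM, was inside the scrambled interval. miR-744-5p had 439 ± 278 RPM against 1722 RPM (8 reads, 744 to 3389), with a log2 difference of -2.30 (limma, SE 1.11, adjusted p = 0.550). miR-1285-5p and miR-1180-3p, with 6 and 5 scrambled reads, had log2 differences of -2.24 and -1.68 (limma, adjusted p = 0.673 each). For miR-1285-5p it was -1.3 without EVEN replicate 3, where it had 0 reads, and -3.7 with the description number as a block. Such a block sets the scrambled library against ODD and EVEN replicate 3 alone, which share its number. The largest negative values among the 11, -3.46 for miR-589-5p, -2.46 for miR-1269a, -2.45 for miR-500a-3p and -2.37 for miR-663a, came with 1 scrambled read each, or 2 for miR-500a-3p (limma, adjusted p = 0.673 each). With a pseudocount of 250 these were -0.77, -0.54, -0.82 and -0.60.

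For 9 of the 35 tested members, those with 0 scrambled reads, a difference above 0 was fixed by the filter, which they could pass only through X1-probe libraries, and it carries no information on the sign. Of the 26 with a scrambled read, 21 had a difference below 0 and 5 above. This split is also shaped by selection. In the scrambled library 1 read is 215 RPM, above the X1-probe mean of low members such as miR-589-5p (25.6 RPM) and miR-663a (61.0 RPM). For low members having a scrambled read thus favoured a difference below 0, and no direction is read from the split. The abundant members had reads in every library and narrower intervals. For miR-1260b the log2 difference was 0.14, with a 95% interval from -0.69 to 0.97, and for miR-1260a it was 0.11 (-0.76 to 0.99). miR-584-5p had -0.61 (-1.47 to 0.25) and miR-1307-3p -0.86 (-2.17 to 0.46), which was -0.52 without ODD replicate 3 and -1.86 with the block. None of these passed (limma, adjusted p = 0.842, 0.880, 0.673 and 0.673).

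**Figure D5:**
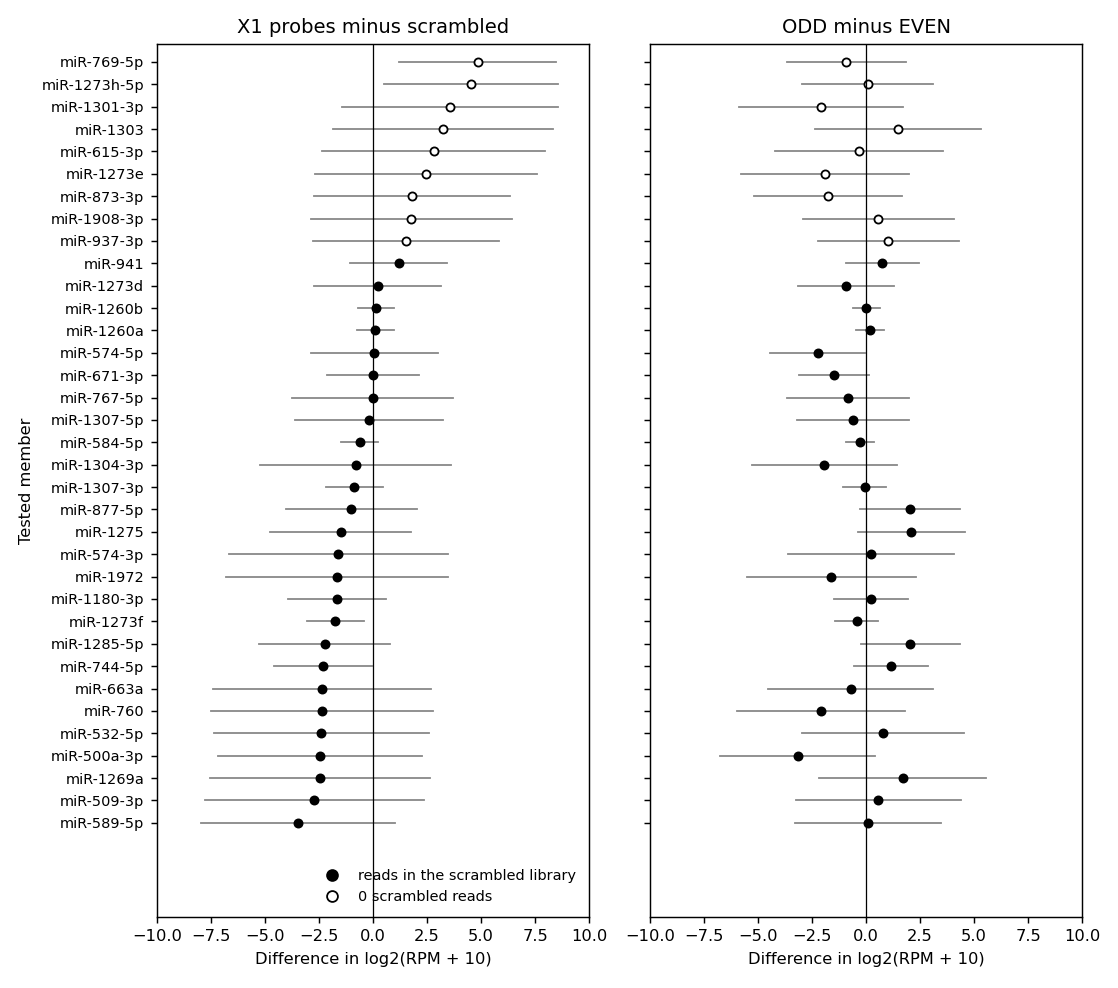
Difference in log2(RPM + 10) with its 95% limma interval (x axis) for the 35 tested members (y axis), X1 probes minus scrambled on the left and ODD minus EVEN on the right; open points mark members with 0 scrambled reads. On the left the 9 open points can only lie above 0, since these members passed the filter through X1-probe libraries alone, and miR-1260a and miR-1260b have narrow intervals around 0.

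ODD and EVEN probes were also compared singly with scrambled probes; both comparisons use the same scrambled library. By limma 0 of the 35 members were higher or lower with ODD probes (lowest adjusted p = 0.383) and 0 with EVEN probes (lowest adjusted p = 0.367), where 0.826% of all tested names were higher and 0% lower with either set. Without adjustment, 2 members were higher and 1 lower with ODD probes at p under 0.05, against 7.44% and 1.65% of all tested names. With EVEN probes 2 were higher and 3 lower, against 6.2% and 2.07%. In all ODD libraries 5 members lay above and 14 below the scrambled value, where 23.1% and 29.3% of all tested names did; for EVEN these were 6 and 12, against 18.2% and 30.2%. miR-769-5p had a log2 difference of 4.39 with ODD and 5.30 with EVEN probes, and miR-1273h-5p 4.56 and 4.49. miR-1273f had -1.96 and -1.53, and miR-744-5p -1.73 and -2.87. With either set, miR-769-5p and miR-1273h-5p were the 2 members higher without adjustment. Both had 0 scrambled reads, so a difference below 0 was not possible and its size depends on the pseudocount. Their like values with ODD and EVEN probes are no independent support. Of the other members above scrambled, miR-1303 (ODD) and miR-1301-3p (EVEN) also had 0 scrambled reads.

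The ODD and EVEN sets address the same transcript, and no member differed between them. By limma 0 of 35 were higher and 0 lower with ODD probes, the lowest adjusted p being 0.909, and of all tested names 0% were higher and 0.413% lower. Without adjustment, 0 members were higher and 1 was lower at p under 0.05, miR-574-5p, against 2.07% and 2.48% of all tested names. The median log2 difference was -0.06 for the members and 0.07 for all tested names. For the miR-1260 pair and miR-584-5p the 95% intervals excluded changes as large as 2-fold: 0.012 (-0.62 to 0.64) for miR-1260b, 0.17 (-0.49 to 0.84) for miR-1260a and -0.27 (-0.93 to 0.38) for miR-584-5p. Over all 35 members the half-width of the interval was 3.04 at the median, so most members could differ by several fold unseen.

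miR-671-3p was the member with every ODD value below every EVEN value, 1 of 35 or 2.86%, where 3.31% of all tested names were lower with ODD probes in this way; 0 members were higher, against 3.72%. It had 185, 169 and 494 RPM in ODD replicates 1 to 3 and 646, 552 and 1049 RPM in EVEN replicates 1 to 3, from 10 and 19 reads. The scrambled library had 430 RPM, 2 reads, below all EVEN libraries and below ODD replicate 3. The log2 difference was -1.49 (95% interval -3.10 to 0.12; SE 0.79, adjusted p = 0.909 by limma).

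Among the next differences, those of miR-574-5p, miR-877-5p, miR-1275 and miR-1285-5p rested on a single library without a read. Those of miR-760 (-2.09) and miR-1301-3p (-2.08) came from 7 and 10 X1-probe reads (limma, adjusted p = 0.979 each). miR-574-5p had 1386, 676 and 0 RPM with ODD probes and 646, 1449 and 1049 RPM with EVEN probes, a log2 difference of -2.24 (limma, adjusted p = 0.909). Without ODD replicate 3, the shallowest library, it was -0.038. miR-877-5p (2.04), miR-1275 (2.09) and miR-1285-5p (2.05) had 0 reads in EVEN replicate 3, and without that library their differences were 0.034, 0.35 and 0.17 (limma, adjusted p = 0.909 each with all libraries). miR-500a-3p, with the largest of the differences described, had 2, 0 and 0 reads with ODD probes and 2 in each EVEN library. Its log2 difference was -3.17 (limma, adjusted p = 0.909) and ran from -4.60 to -2.46 when any 1 library was left out. With a pseudocount of 250 it was -0.72.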

How the data were processed

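The authors deposited RPM, reads scaled to 1000000 per library, for 498 hairpin and mature pairs in 7 libraries; the unit was inferred from the values, since each column sums to that. CASAVA 1.8 and cutadapt 1.2.1 appear in the submitters' processing notes; for aligner, counting rule, annotation and build, the answer is not given in the sources used here. Values were written with a decimal comma and were divided by the smallest nonzero value of the library, which gave whole reads for 100% of them (tolerance 1e-06). Where a mature name had several hairpin rows, the highest was kept, giving 480 names. Shares use the reads of these rows.

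The test of differences was limma (version 3.58.1, R 4.3.3): group means of log2(RPM + 10), eBayes with a trend, two-sided, and Benjamini-Hochberg adjustment over 242 names at 0.05. Residual and prior degrees of freedom were 4 and 28.6. The fit was tested on simulated reads with counting error only, for ODD against EVEN and not for the comparisons with scrambled probes. Groups came from the sample titles. Members and lists were chosen with earlier results of these data known. Named were the 10 strongest members, the top 3 of each library, members with reads in all 7 libraries, the 5 largest non-overlapping differences in each direction, leading list members and arms of at least 10 reads; other names were chosen after their values were seen. The description numbers 9, 10 and 12 were shared between groups, and the scrambled library carried 12, as did ODD and EVEN replicate 3. Alternatives were pseudocounts, filters, scaling, the trend, hairpin rows, a block and leaving out each X1-probe library.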

Additional observations from a re-analysis of the deposited data

How the results depend on the processing

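The counts of members called were unchanged at 0 in the other settings, except with no filter, where 2 were lower with X1, ODD and EVEN probes, miR-503-5p and miR-550a-3p, each with 1 scrambled read and 0 others. The lowest adjusted p of a member ran from 0.0114 to 0.524 for X1 probes against scrambled and from 0.104 to 0.982 for ODD against EVEN by limma. With the description number as a replicate block 0 members passed in all 4 comparisons, and no call changed. The numbers were not taken to pair the samples, since no label says what a shared number marks. Deviations of same-numbered ODD and EVEN libraries correlated at -0.04, 0.07 and 0.02, which at these read counts does not decide whether they were paired. The block turned the X1-probe differences of miR-1260a and miR-1260b to -0.21 and -0.072. With the block, the scrambled library is set against ODD and EVEN replicate 3 alone, the X1-probe libraries that share its number. Quantile scaling turned the ODD against EVEN differences of miR-1260a and miR-1260b to -0.0038 and -0.19, and the cause was not tested. Leaving out 1 library gave -0.017 to 0.25 for miR-1260a with X1 probes, and for ODD against EVEN -0.099 to 0.44 for miR-1260a, -0.12 to 0.19 for miR-1260b and -0.42 to 0.62 for miR-1307-3p. The other 19 differences tested again kept their sign, though many sizes moved with the pseudocount. Over all hairpin rows the summed share was 2.07% (ODD), 2.18% (EVEN) and 2.67% (scrambled); without the most abundant microRNA in the total it was 3.55%, 3.77% and 4.4%. Without miR-1260b it was 2.50% with EVEN probes. Without both miR-1260 entries, a setting chosen after seeing the data, it was 1.87%, 2.06% and 2.73%. Members with 3 reads or more averaged 17.0 (ODD), 16.3 (EVEN) and 10 (scrambled), and with 2 or more 23.0 (EVEN) and 14 (scrambled); at the shallowest depth 25.5 were expected with EVEN probes. A planned count test with edgeR was not run, because the decimal commas kept the unit from being checked. Depth limits the low members: 1 scrambled read is 215 RPM and 53 of the 91 members had at most 3 reads.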
